A study of Homo sapiens with 36 samples.

Results

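NORAD, TUG1, OIP5-AS1, KCNQ1OT1, MEG3 and FTX are 6 long transcripts usually classed as long noncoding RNAs (lncRNAs). Their windows were taken by exact gene name from 9 deposited lists, one per protein, of genomic windows enriched by eCLIP. In eCLIP, RNA crosslinked to a protein is immunoprecipitated (IP), sequenced and compared with an input library that was not. Of the 6 genes, 4 carried a listed window: NORAD 75, TUG1 164, OIP5-AS1 33 and FTX 727. Together these were 999 of the 788098 windows in all lists, or 832 distinct positions of 601384. No window in the tables used here carried the name KCNQ1OT1 or MEG3, and none of any name lay inside their RefSeq loci (chr11:2608328-2699994 and chr14:100826108-100861026, GRCh38.p14). A missing window was either not enriched or too thinly covered, and the tables cannot separate these cases.

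All 36 libraries came from HEK293T, an established human embryonic kidney line grown without treatment, and formed 18 groups of 2: IP and input for each of CPSF5, CPSF6, EIF4B, GRB2, LGALS3, MBNL2, RBM10, RBM22 and RNPS1. Precipitation used an antibody to the protein or to a V5 tag, and which applied to which protein is not given in the sources used here, nor is it stated whether replicates were separate cultures. The tables hold IP and input reads summed over both replicates, in windows called in both, so library depth is unknown and no test across samples was possible. Everything below describes these lists. Reads in listed windows ran from 187076 (LGALS3) to 13313477 (GRB2) for IP. Neither transcript abundance nor markers of the line were analysed here, because only enriched windows are listed.

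NORAD is a cytoplasmic RNA made from a single exon, known for its many binding sites for the RNA-binding protein PUM2 and for its role in genome stability. TUG1 was first described in the retina, and OIP5-AS1 is a spliced RNA reported to bind the RNA-stabilising protein ELAVL1. FTX lies in the X-inactivation centre and hosts microRNAs in its introns and exons. KCNQ1OT1 and MEG3 are imprinted transcripts. CPSF5 (gene NUDT21) and CPSF6 form cleavage factor Im, which recognises UGUA upstream of poly(A) sites. The element bound by PUM2 begins with the same letters. EIF4B assists the helicase EIF4A in translation initiation, RNPS1 belongs to the exon junction complex, RBM10 and RBM22 act in splicing and MBNL2 is a muscleblind splicing regulator. GRB2 is a signalling adaptor, and LGALS3 is a galactoside-binding lectin.

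The label of lncRNA held for 5 of the 6 in the RefSeq gene table, and TUG1 was the exception. Both RefSeq and the deposited tables class TUG1 as protein coding. Of its 71 distinct windows, 60 were annotated as 3′ UTR, 3 as coding sequence, 1 each as start codon, stop codon and 5′ UTR, and 5 as lncRNA exon. TUG1 was therefore not ranked among lncRNA genes.

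Sequences are shown for places where windows of several proteins met. RefSeq promoter sequence (GRCh38.p14) covered the first listed NORAD window, chr20:36050920-36051018 on the minus strand, and the first 50 bases of the first OIP5-AS1 window, chr15:41283990-41284039 on the plus strand. Capitals mark bases at or after the start of a RefSeq transcript.
NORAD: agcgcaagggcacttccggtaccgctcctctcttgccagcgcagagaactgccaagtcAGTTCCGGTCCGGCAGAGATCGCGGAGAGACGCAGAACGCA
OIP5-AS1: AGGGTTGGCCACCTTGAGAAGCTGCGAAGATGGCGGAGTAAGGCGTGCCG

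The NORAD window began 58 bases before the RefSeq start, so the deposited annotation placed the exon's 5′ end upstream of RefSeq. It was listed for CPSF5, CPSF6 and EIF4B. The OIP5-AS1 window was listed for EIF4B, MBNL2 and RNPS1. Neither stretch held TGTA, the DNA spelling of UGUA, on the transcribed strand. Of 35116 RefSeq promoters, 15.5% held TGTA in the 99 bases placed as in the NORAD window, and 26.4% did so on either strand. No such share is given for the 50 bases of OIP5-AS1. The absence says only that these letters are not in these bases.

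In FTX, windows of CPSF5 and CPSF6 lay over microRNA genes. The MIR374A hairpin occupied exactly one listed window, chrX:74287286-74287357 on the minus strand, shown with its 3p mature RNA in capitals. The matures of miR-374a-3p and miR-421, which listed windows overlapped, are shown with miR-374b-3p, which none overlapped. Their capitals mark the seed, bases 2 to 8.
MIR374A: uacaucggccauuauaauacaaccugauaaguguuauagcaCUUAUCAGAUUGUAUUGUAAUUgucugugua
miR-374a-3p: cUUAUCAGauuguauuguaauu
miR-421: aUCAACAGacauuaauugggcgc
miR-374b-3p: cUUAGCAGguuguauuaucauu

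The seeds of the 3 matures all differed. UGUA occurred 3 times in the MIR374A hairpin, counted on the transcribed strand, and 2 of these were in miR-374a-3p. It occurred once in miR-374b-3p, which no listed window overlapped, and not at all in mature miR-421, which CPSF5 and CPSF6 windows overlapped. The whole MIR421 hairpin, which windows of both proteins also overlapped, held UGUA once, outside that mature RNA. The whole MIR374B hairpin, which no listed window overlapped, held it once too. In 1562 RefSeq human hairpins, 24.6% held UGUA at least once (34.6% on either strand), and 4.80% held it 2 or more times.

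**Figure D1:**
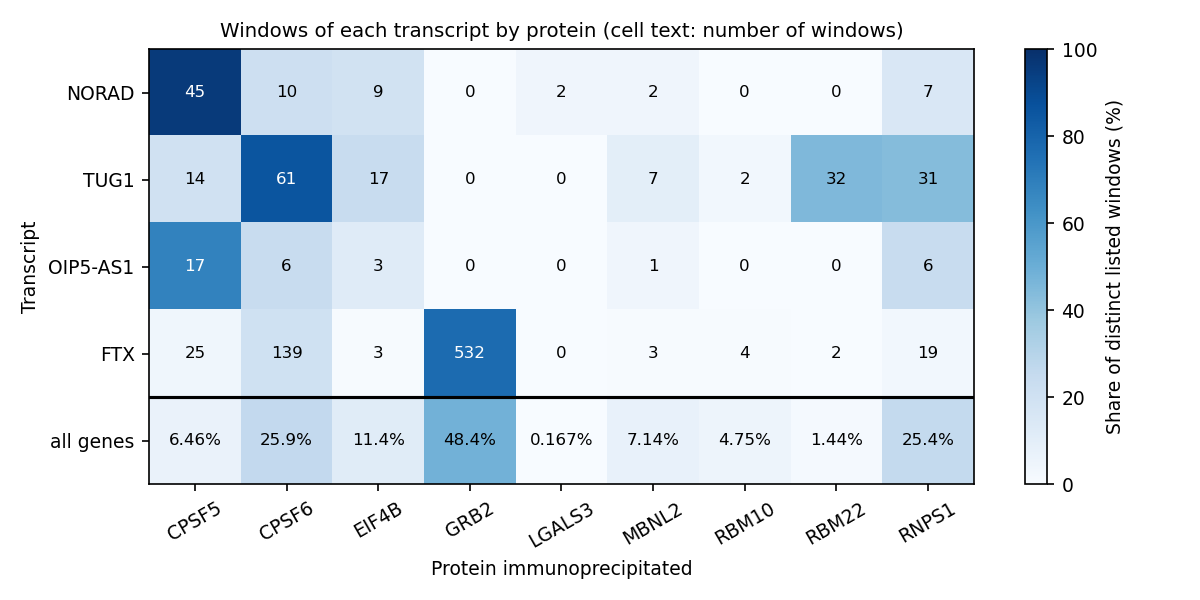
Number of listed windows (cell text) for each of the 4 transcripts with windows, by protein. Colour gives the share of the transcript's distinct windows that the protein's list holds, and the bottom row gives that share over all 601384 distinct windows. By number of windows, CPSF5 leads on NORAD and OIP5-AS1, CPSF6 on TUG1 and GRB2 on FTX.

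The protein with the most windows differed by transcript. CPSF5 held 95.7% of NORAD's 47 distinct windows and 68% of the 25 on OIP5-AS1, against 6.46% of all distinct windows. CPSF6 held 85.9% of the 71 on TUG1 (25.9% of all), and GRB2 held 77.2% of the 689 on FTX (48.4% of all). GRB2 had no window on NORAD, TUG1 or OIP5-AS1. Over all distinct windows, the EIF4B list held 11.4%, LGALS3 0.167%, MBNL2 7.14%, RBM10 4.75%, RBM22 1.44% and RNPS1 25.4%.

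Counted by gene, CPSF5, CPSF6, EIF4B, MBNL2 and RNPS1 each had windows on the same 4 members. Over all 11298 gene names in the lists, CPSF5 was listed on 61.1%, CPSF6 on 84.2%, EIF4B on 89.2%, MBNL2 on 62.2% and RNPS1 on 87%. RBM10 and RBM22 had windows on 2 members each, TUG1 and FTX (45.1% and 23.2% of all genes). GRB2 had windows on FTX alone of the 6 (46.7% of all genes), and LGALS3 on NORAD alone (3.27% of all genes). With 6 genes, these counts say little about how the members stand against all genes.

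NORAD was covered by CPSF5 along nearly its whole length. The 45 CPSF5 windows covered 4420 nt, a length equal to 82.7% of the 5343-nt gene (chr20:36045618-36050960, minus strand). Of this length, 58 nt lay before the RefSeq start. All 45 windows were annotated as lncRNA exon. They held 4607 IP and 577 input reads, with 13 to 288 IP reads per window and a median of 91. The log2 enrichment of IP over input, the authors' log2 odds ratio, is given here for the lower of the 2 replicates unless stated. It ranged from 1.47 to 5.32 with a median of 2.98, beside 2.81 for the whole CPSF5 list, and 29 of the 45 windows exceeded that list median.

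CPSF5 windows continued to the last base of the RefSeq gene. The highest enrichment was at chr20:36045912-36046009, centred 4999.5 nt from the start, with 94 IP and 2 input reads and values of 5.32 and 6.01 in the lower and higher replicate. The last window, centred at 5293.5 nt, had 136 IP and 4 input reads and values of 4.77 and 5.10. The window with most IP reads lay far upstream, at chr20:36049742-36049839 (centre 1169.5 nt), with 288 IP and 15 input reads and values of 4.27 and 5.35. High and low windows alternated along the RNA, and the lowest, centred at 3820.5 nt, had 45 IP and 26 input reads and a value of 1.47.

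The longest stretch of NORAD without a CPSF5 window ran 491 nt between the centres at 1169.5 and 1660.5 nt. No other protein had a window centred between these positions either. CPSF5 windows were AU-rich, with a median GC content of 36.7% (35.8% for the whole list). GC content itself changed along NORAD: CPSF5 windows centred in the first 1000 nt had a median of 62.6%, and those beyond it 35.5%. Median enrichment was 2.94 in the 9 windows of the first group and 3.07 in the 36 of the second. The boundary of 1000 nt was chosen after the values were seen.

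EIF4B was concentrated at the 5′ end of NORAD. Its 9 windows were all centred within the first 1000 nt, the last at 973 nt, and held 6180 IP reads against 126 input reads. That was 50.9% of the IP reads in NORAD windows of all proteins, against 37.9% for CPSF5 in 5 times as many windows. Since library depth is unknown, reads of different proteins are set side by side and not compared as binding.

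EIF4B enrichment was highest at the start and fell unevenly downstream. The window chr20:36050822-36050919, centred 89.5 nt from the start, had 2689 IP and 32 input reads and values of 5.39 and 5.68. The window printed above had 1616 IP and 17 input reads and values of 5.12 and 6.21. Further windows, going downstream, had 664, 647, 218, 200, 97, 23 and 26 IP reads. Their lower-replicate values were, in the same order, 4.20, 3.41, 4.61, 3.62, 2.40, 2.07 and 1.43. The last of these windows, at 973 nt, had 18 input reads and values of 1.43 and 2.67. The first windows were GC-rich (78.6% for the strongest), and GC and position moved together here. The part of GC in the enrichment was not tested.

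**Figure D2:**
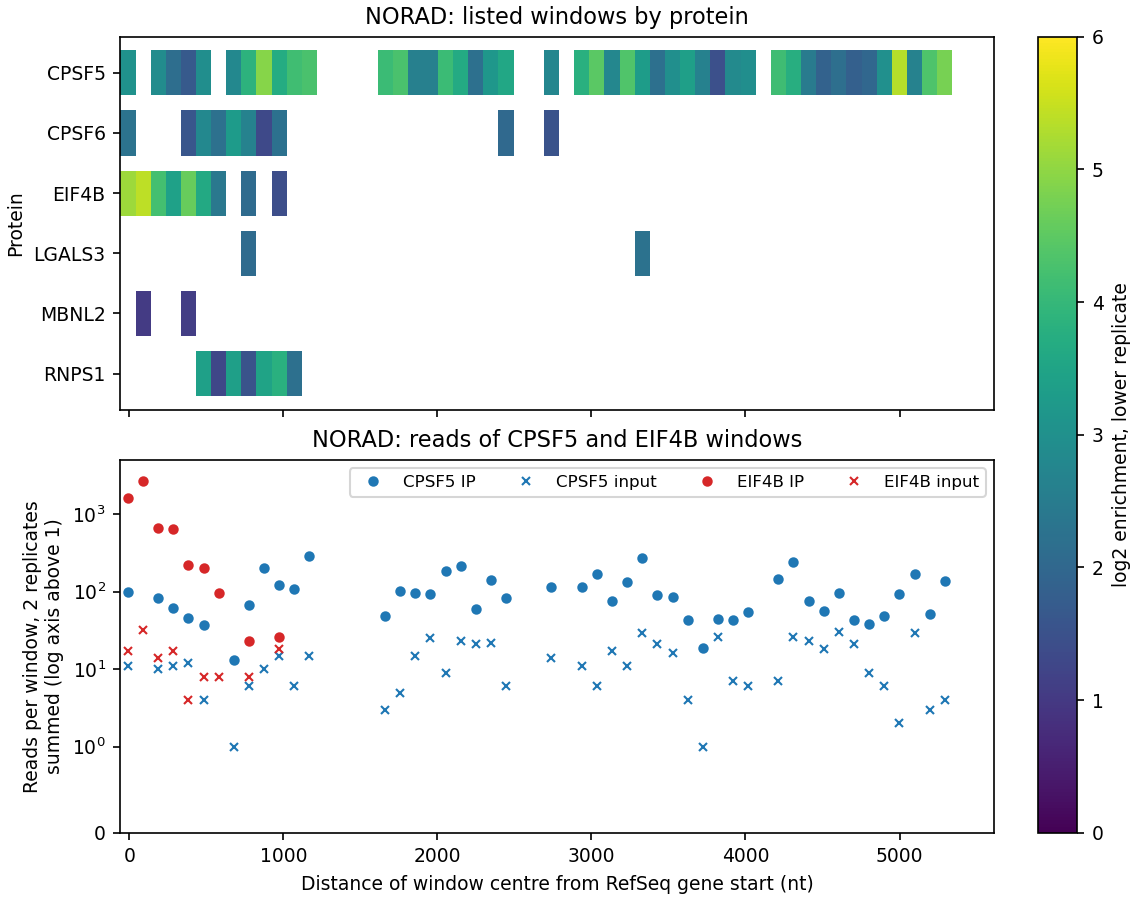
Top, listed windows of NORAD by protein and distance from the RefSeq start (nt), coloured by the lower replicate's log2 enrichment. Bottom, IP (circles) and input (crosses) reads per window, summed over 2 replicates, on a log axis, for CPSF5 and EIF4B. CPSF5 windows run from the start to 5293.5 nt, and EIF4B windows stop at 973 nt.

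CPSF6 and RNPS1 also had most of their NORAD windows near the 5′ end. CPSF6 had 10 windows, 8 of them in the first 1000 nt with 92.5% of its 818 IP reads, at a median enrichment of 2.22. RNPS1 had 7, with 6 in the first 1000 nt and the other centred at 1071.5 nt, at a median of 3.36. They formed one unbroken run from 482 nt, highest at chr20:36049938-36050036 with 79 IP and 7 input reads and values of 3.80 and 3.98. That position was also the CPSF6 window with most IP reads, 170 against 33 input reads.

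MBNL2 and LGALS3 had 2 NORAD windows each. The MBNL2 windows, at 89.5 and 383.5 nt, had 92 IP reads each and values of 1.03 and 1.09, below that list's median of 2.39. The LGALS3 windows, at 776.5 and 3329.5 nt, had 17 and 22 IP reads and values of 2.06 and 2.27. None of these 4 windows had a highest q-value over replicates of 0.05 or less, whereas 40 of the 45 CPSF5, 8 of the 9 EIF4B, 6 of the 10 CPSF6 and 3 of the 7 RNPS1 windows did. LGALS3 listed only 1002 windows in all, so its 2 on NORAD made 20 per 10000 listed, beside 11.6 for CPSF5.

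Among NORAD's 47 distinct windows, 32 were listed for 1 protein, 7 for 2 and 8 for 3 or more. The most crowded, centred at 776.5 nt, was listed for CPSF5, CPSF6, EIF4B, LGALS3 and RNPS1. Windows in 2 or more lists made 31.9% on NORAD and 22.3% over all distinct windows. Counting only NORAD windows with a highest q of 0.05 or less, the share was 20.5%. No share over all windows is given under that limit. All 7 RNPS1 and all 9 EIF4B windows were also in another list, as were 13 of the 45 CPSF5 windows (28.9%). Over the whole lists, that held for 69.5% of RNPS1, 60.5% of EIF4B and 29.8% of CPSF5 windows.

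On TUG1 (chr22:30969265-30979395, plus strand, 10131 nt), CPSF6 windows were the most numerous. Most RBM22 and RNPS1 windows there were CPSF6 windows too. The 61 CPSF6 windows covered 5916 nt, 58.4% of the gene, with 4695 IP and 966 input reads. Their median enrichment was 2.36, range 1.18 to 3.89, against 2.51 for the list, and 24 exceeded the list median. Most lay in the 3′ part, with a median position at 64.6% of the gene, and 37 followed a gap of 1677 nt between centres at 4276.5 and 5953.5 nt.

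The highest CPSF6 enrichment on TUG1 was at chr22:30972757-30972854, with 91 IP and 6 input reads and values of 3.89 and 4.59. The most reads were at chr22:30971583-30971680, with 245 IP and 42 input reads and values of 2.98 and 3.13. The replicates therefore lay closer together at the window with more reads.

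RBM22, a splicing factor of the catalytic spliceosome, had 32 windows on TUG1, of which 31 were CPSF6 windows too and all were in at least one other list, as were 82.3% of all RBM22 windows. TUG1 made 36.9 of every 10000 RBM22 windows, against 3.92 for CPSF6, 3.61 for CPSF5 and 2.03 for RNPS1. Enrichment was modest, with a median of 1.74 against 2.12 for the RBM22 list, and 4 of 32 exceeded that median. IP reads ran from 25 to 76 per window, so no single window set the pattern. The highest was chr22:30976545-30976643, with 52 IP and 12 input reads and values of 2.68 and 3.51. Only 12 of the 32 had a highest q of 0.05 or less.

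RNPS1 had 31 TUG1 windows, 30 of them shared with CPSF6 and 19 with RBM22. All 31 were in another list, beside 69.5% of the whole RNPS1 list. No share over all windows is given for these pairs or for RBM22 with CPSF6. A highest q of 0.05 or less was found for 16, and 14 had at least 20 IP reads. Its median was 2.32, below the list's 2.93, and 5 windows exceeded that. The highest value rested on few reads: chr22:30972659-30972756 had 16 IP and no input reads, with values of 4.18 and 5.33. The RNPS1 window with most reads, chr22:30972855-30972945, had 115 IP and 5 input reads and values of 3.60 and 5.58.

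That same 91-nt window was listed for 6 proteins: CPSF6, EIF4B, MBNL2, RBM10, RBM22 and RNPS1. For RBM10 it had 82 IP and 11 input reads and values of 1.99 and 2.05, for RBM22 42 and 13 reads and values of 1.57 and 1.64, and for MBNL2 12 and 6 reads and values of 1.94 and 2.18. The adjoining upstream window held the highest CPSF6 enrichment described above. Of TUG1's distinct windows, 80.3% were in 2 or more lists, beside 22.3% of all. The share was 45% when only windows with a highest q of 0.05 or less were counted. That limit was not applied to the share of all windows, so the 45% has no matching background here. The lists also differ in how much they share. On TUG1, 88.5% of CPSF6 windows were in another list, beside 65.2% of the whole CPSF6 list. GRB2, with no window on TUG1, held 48.4% of all distinct windows, and 1.91% of its windows were in another list.

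EIF4B reads lay mostly at the 5′ end of TUG1. EIF4B had 17 windows, 9 of them with a highest q of 0.05 or less, and the 7 in the first 1000 nt held 88.2% of its 1380 IP reads. The first, chr22:30969270-30969356, had 341 IP and 22 input reads and values of 2.79 and 3.67, so the 5′ concentration of EIF4B reads seen on NORAD was present on TUG1, with lower enrichment. The 10 downstream EIF4B windows had few reads, including the highest by enrichment, chr22:30977626-30977724, with 19 IP and 2 input reads and values of 2.98 and 4.12.

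CPSF5 had 14 TUG1 windows in separate blocks, 10 of them centred between 141.5 and 1974.5 nt and 4 between 7722.5 and 9982.5 nt, with none over the 5748 nt between. Values in the 5′ block ran from 1.33 to 2.00, and those in the 3′ block from 2.09 to 3.31, with no overlap in the lower replicate. In the higher replicate the blocks overlapped, at 1.66 to 3.44 and 2.79 to 5.31. The highest was also the last, chr22:30979199-30979296, near the 3′ end of the gene, with 32 IP and 2 input reads and values of 3.31 and 5.31. Of the 14, 5 had a highest q of 0.05 or less.

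The remaining proteins were sparse on TUG1. MBNL2 had 7 windows with 9 to 45 IP reads. Its highest value, 3.50 at chr22:30976251-30976348, rested on 9 IP and 6 input reads. RBM10 had 2 windows, neither with a highest q of 0.05 or less.

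**Figure D3:**
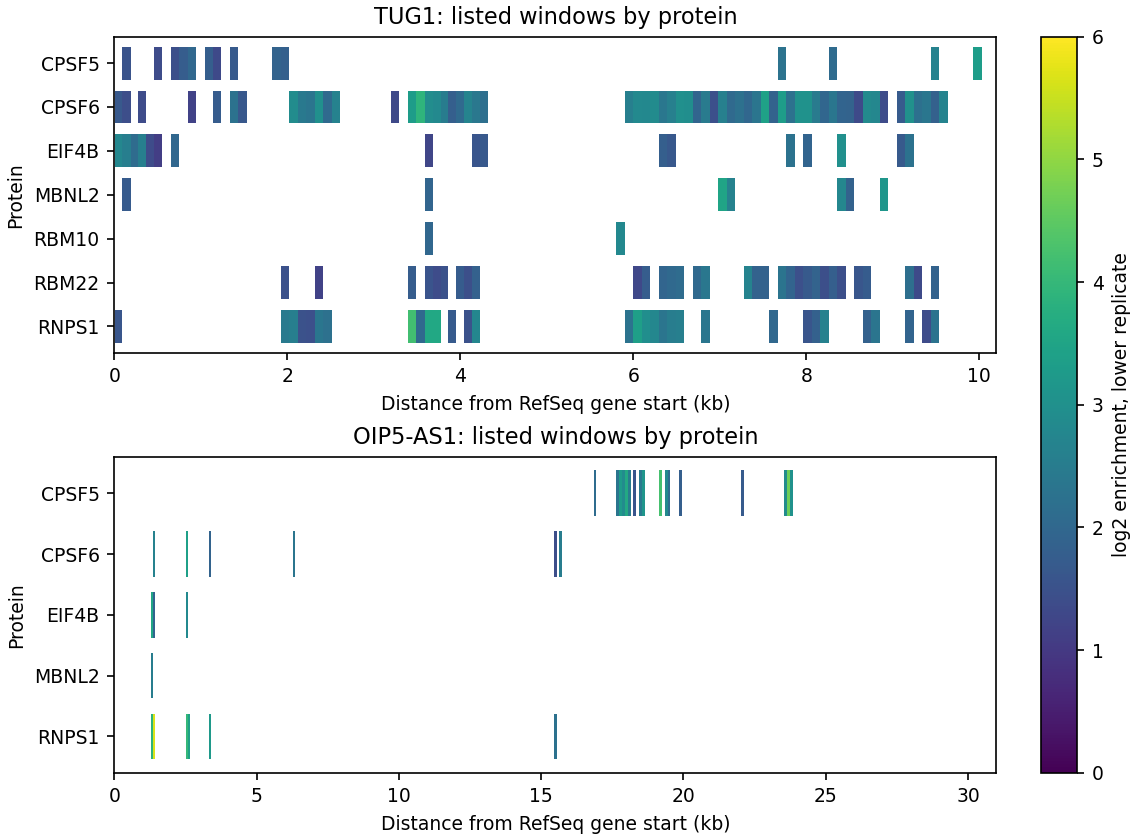
Listed windows of TUG1 (top) and OIP5-AS1 (bottom) by protein and distance from the RefSeq gene start (kb), coloured by the lower replicate's log2 enrichment. On TUG1, most RBM22 and RNPS1 windows lie at CPSF6 windows, which are more numerous. On OIP5-AS1, the CPSF5 windows all lie at or beyond 16891.5 nt, downstream of every window of the other proteins.

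OIP5-AS1 was divided between 5′ exons and a distal exon region. All 17 CPSF5 windows were centred between 16891.5 and 23787.5 nt from the RefSeq start (chr15:41282697-41313338, plus strand, 30642 nt), and none was in the list of any other protein. Over the whole CPSF5 list, 70.2% of windows were in no other list. The 17 held 919 IP and 125 input reads at a median enrichment of 2.86, close to the list's 2.81, and 11 had a highest q of 0.05 or less. The 16 windows of the other proteins were all centred at or before 15692.5 nt.

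CPSF5 reads on OIP5-AS1 peaked in the run of windows around chr15:41300539-41300638, which had 171 IP and 16 input reads and values of 2.90 and 4.79. The next window downstream had 134 IP and 14 input reads and values of 3.62 and 4.10. The highest enrichment lay near the end of the block at chr15:41306335-41306434, with 29 IP and no input reads and values of 4.67 and 5.31. The block ended well before the RefSeq gene end, with its last window at 77.6% of the gene. Median GC content of the 17 windows was 33%.

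RNPS1 and EIF4B were found on the small 5′ exons. RNPS1 had 5 of its 6 windows in exons that the authors annotated as mRNA exons, between chr15:41283990 and chr15:41286093, and 1 at 15492.5 nt. At chr15:41284050-41284110 it had 90 IP and no input reads and values of 5.67 and 6.16, the highest of any protein on this gene. In the first window, whose start is printed above, RNPS1 had 151 IP and 2 input reads (3.85 and 4.70), EIF4B had 134 and 5 (3.56 and 4.13), and MBNL2 had 46 and 9 (2.52 and 3.07). EIF4B's other windows had 108 and 13 IP reads, and all 3 were shared with RNPS1.

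CPSF6 also had 6 OIP5-AS1 windows, 3 in the 5′ exons and 3 between 6311.5 and 15692.5 nt. Its highest value was at chr15:41285225-41285293, with 33 IP and 3 input reads and values of 3.38 and 3.84, in a window shared with EIF4B and RNPS1. Of the 6, 4 were RNPS1 windows. Over the whole lists, 65.2% of CPSF6 and 60.5% of EIF4B windows were in some other list. No share over all windows is given for either protein with RNPS1 alone.

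The overlap of the CPSF5 and CPSF6 windows, the pair that forms cleavage factor Im, differed from member to member. The members held 101 CPSF5 and 216 CPSF6 windows, and 23 were in both lists, 22.8% of the CPSF5 and 10.6% of the CPSF6 windows. Over all genes, 5468 windows were in both, 14.1% of the CPSF5 and 3.52% of the CPSF6 list. On NORAD 9 were in both, 20% of the CPSF5 and 90% of the CPSF6 windows. On TUG1 7 were, 50% and 11.5%, and on FTX 7, 28% and 5.04%. OIP5-AS1 had 0. A window listed for one subunit and not the other is not shown to differ between them, since no count per library is given.

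FTX (chrX:74028136-74293574, minus strand, 265439 nt) carried mainly intronic GRB2 windows. Of 532 GRB2 windows, 524 were annotated as intron and 6 as lncRNA exon. They covered 53103 nt, 20% of the gene, with 31656 IP and 1413 input reads, and 166 had no input read. Median enrichment was 3.49, range 1.20 to 6.86, against 3.38 for the whole GRB2 list, and 292 exceeded the list median. A highest q of 0.05 or less was found for 364.

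GRB2 windows came in blocks along FTX. Dividing the gene into 10 equal parts from the 5′ end, part 6 held 148 windows, part 3 held 103 and part 8 held 95, while parts 2 and 9 held 2 each. The highest enrichment was at chrX:74150368-74150467, 143156.5 nt from the start, with 146 IP and no input reads and values of 6.86 and 7.05. The most reads were at chrX:74233115-74233214, with 346 IP and 9 input reads and values of 4.23 and 5.97. Both are intronic. With no input read, a value depends on how the authors treated zeros, which is not given in the sources used here.

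CPSF6 windows on FTX lay mostly elsewhere. CPSF6 had 139, of which 102 were intronic and 28 in lncRNA exons, with 4841 IP and 619 input reads and a median enrichment of 2.96 against 2.51 for the list. A highest q of 0.05 or less was found for 74 of them. Part 4 held 47, part 9 held 26 and part 8 held 24, and parts 6 and 7, which held 148 and 51 GRB2 windows, had 0. Of the CPSF6 windows 7 were in the GRB2 list, 5.04% of the CPSF6 and 1.32% of the GRB2 windows on FTX. Over all genes the overlap was smaller, 0.924% of the CPSF6 and 0.494% of the GRB2 list. The highest was an intronic window, chrX:74095989-74096088, with 48 IP and no input reads and values of 5.05 and 6.46.

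**Figure D4:**
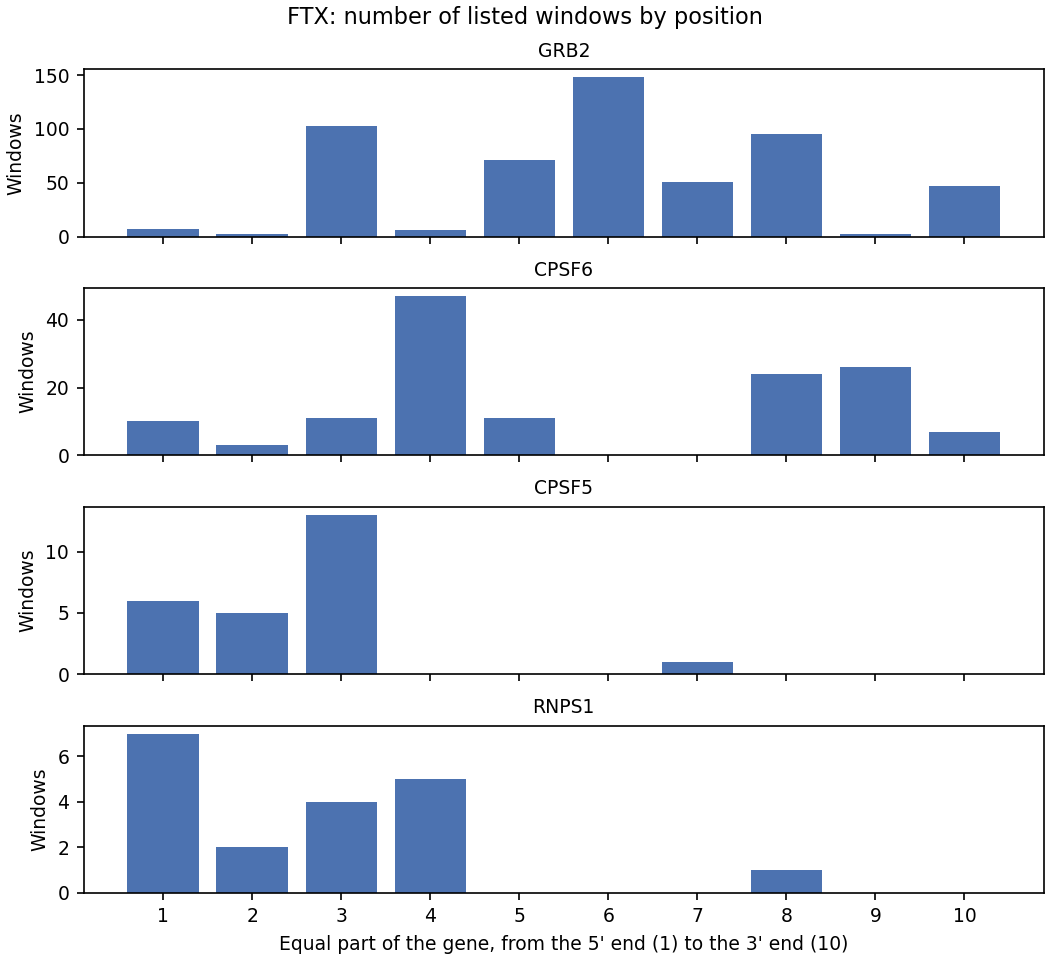
Number of listed FTX windows of GRB2, CPSF6, CPSF5 and RNPS1 in each of 10 equal parts of the gene, from the 5′ to the 3′ end. Each panel has its own vertical axis, starting at 0. GRB2 has 148 windows in part 6, where CPSF6 has 0, and CPSF6 has 47 in part 4, where GRB2 has 6.

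An exonic stretch of FTX about 75 kb from the start drew several proteins together. RNPS1 had its highest FTX value at chrX:74218631-74218725, with 73 IP and no input reads and values of 5.74 and 6.33, and CPSF6 had 180 IP and 17 input reads there (2.65 and 3.82). The adjoining window upstream in the transcript, chrX:74218726-74218825, was annotated as next to a 3′ splice site. It held the most CPSF6 reads of any FTX window, 188 IP and 12 input, at 4.74 and 5.57, whereas RNPS1 had 10 IP and 4 input reads there. Further downstream, chrX:74217971-74218064 was listed for 4 proteins. MBNL2 had values of 5.09 and 5.30 there from 12 IP and 1 input reads, CPSF5 4.11 and 5.58 from 31 and 1, GRB2 2.34 and 3.90 from 56 and 4, and CPSF6 2.02 and 2.35 from 23 and 7.

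The MIR421 hairpin lies in that stretch, and 4 listed windows overlapped it, 2 each of CPSF5 and CPSF6. In chrX:74218348-74218441, which contains mature miR-421, CPSF5 had 33 IP and 2 input reads (2.84 and 6.13), and CPSF6 had 53 and 4 (3.20 and 4.78). In chrX:74218442-74218536, CPSF5 had 56 and 7 (3.47 and 3.87), its most reads on FTX. The replicates of CPSF5 lay further apart at the first of these windows than at the second. No listed window overlapped the MIR374B hairpin, or either mature of MIR545.

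The windows around MIR374A carried the joint name FTX:MIR545:MIR374A and were therefore outside the count of 727. CPSF5 had 4 of them and CPSF6 3. At the hairpin, CPSF5 had 14 IP and no input reads and values of 4.17 and 4.25, and CPSF6 had 18 and 1 and values of 3.90 and 4.69. The adjoining window downstream in the transcript, chrX:74287210-74287285, had more reads: CPSF5 60 IP and 2 input (4.80 and 5.44), CPSF6 72 and 1 (5.07 and 6.12). A further 11 windows carried the joint name FTX:RP3-368A4.6, of which GRB2 had 7, CPSF5 3 and CPSF6 1.

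CPSF5 and RNPS1 windows were nearer the 5′ end of FTX. CPSF5 had 25, with 24 in parts 1 to 3 and a median enrichment of 2.41, below the list's 2.81. RNPS1 had 19, with 14 in lncRNA exons, and 15 were CPSF6 windows. On FTX 78.9% of RNPS1 windows were in another list, beside 69.5% of the whole RNPS1 list. No share over all windows is given for RNPS1 with CPSF6 alone. A highest q of 0.05 or less was found for 9 of the CPSF5 and 8 of the RNPS1 windows. RBM10 had 4 windows, EIF4B and MBNL2 3 each and RBM22 2. The 3 EIF4B windows had 10 to 17 IP reads and were intronic, so FTX did not show the reads at the 5′ end that EIF4B had on NORAD and TUG1. Both RBM22 windows were intronic with no input reads, at 22 and 20 IP reads. In all, 5.08% of FTX's distinct windows were in 2 or more lists, beside 22.3% of all. Most were GRB2 windows, of which 2.07% on FTX were in another list, beside 1.91% of the whole GRB2 list.

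Among lncRNA genes of the lists, NORAD ranked first of 146 for CPSF5 windows, ahead of MIR17HG with 43 and MIRLET7A1HG with 35, and made 6.34% of the 710 CPSF5 windows in such genes. By IP reads its rank was 5. For EIF4B it ranked 45th of 368 by windows and second by IP reads. FTX ranked first of 184 for GRB2, ahead of LINC00630 with 387, with rank 4 by IP reads. For CPSF6 it ranked second of 435, behind DUXAP8 with 144, with rank 8 by IP reads. A long gene has room for more windows, and FTX is the longest of the members. OIP5-AS1 had rank 10 of 146 for CPSF5, and rank 14 by IP reads.

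NEAT1, which builds paraspeckles, and MALAT1, found in nuclear speckles, are nuclear lncRNAs given for comparison. On NEAT1's 57 distinct windows, GRB2, which also led on FTX, had all 57, RBM10 43 and CPSF5 32. On MALAT1's 38, RNPS1 had 27 and CPSF6 26, against 5 for CPSF5. RBM10 had no window on NORAD and GRB2 none on NORAD or TUG1. Only counts are set side by side here, and no difference was tested.

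Similarity of profiles over the 9 proteins was taken as the cosine of log2(window count + 1) among 7710 genes with at least 20 windows. For NORAD the nearest were ZNF770 (0.980), SAMD8 (0.979) and SDCBP (0.978). For TUG1 they were NFAT5 (0.992), ZC3H11A:ZBED6 (0.986) and TET1 (0.980), and NFAT5 had 56 CPSF6, 46 RNPS1 and 16 RBM22 windows. PDCL, BNIP3L and SDCBP were nearest to OIP5-AS1, each at 0.997. PBX3 (0.996) and ATL2 (0.990) were among the nearest to FTX, and PBX3 had 185 GRB2 windows. The likeness is over 9 values that share the same lists.

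Of 17 genes linked to the members as reported partners or neighbours, 12 had a listed window. CPSF5, CPSF6, EIF4B and GRB2 were each listed on 11 (64.7%), and MBNL2 and RNPS1 on 10 (58.8%). RBM10 was listed on 8 (47.1%), RBM22 on 7 (41.2%) and LGALS3 on 1 (5.88%). Over all gene names, the shares were 61.1% for CPSF5, 84.2% for CPSF6, 89.2% for EIF4B and 46.7% for GRB2. They were 62.2% for MBNL2, 87% for RNPS1, 45.1% for RBM10, 23.2% for RBM22 and 3.27% for LGALS3. The reported NORAD partners PUM2, KHDRBS1 and RBMX had 157, 137 and 125 windows. KCNQ1 and CDKN1C, neighbours of KCNQ1OT1, and DLK1, MEG8 and RTL1, neighbours of MEG3, had 0 windows, as did those members themselves. Of the FTX neighbours, CHIC1 had 561 windows, 516 of them GRB2, and JPX had 302, 121 of them GRB2.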

How the data were processed

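The authors deposited, per the file headers, 1 table per protein with whole-number IP and input read counts per window, summed over replicates, and a lower, mean and higher log2 odds ratio of IP over input. They also deposited p-values and q-values over replicates and the GC fraction of each window, printed here as a percentage. Coordinates are those of hg38, a build named in the submitters' processing notes, and RefSeq loci came from GRCh38.p14. The sources used here name no aligner or window caller.

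Windows were matched by exact gene name. Genomic coordinates are 1-based, and positions along a gene are distances of window centres from the first base of the RefSeq gene. For each member and protein, the windows with the highest lower-replicate enrichment and the most IP reads are named, with the 3 genes of most similar profile, NEAT1, MALAT1 and a list of related genes. Some results under this rule are not reported here. The window gaps, the first 1000 nt, the comparison of the cleavage factor Im subunits, the shares of whole lists found in other lists and other single windows were added after the values were seen. The members and lists were chosen with earlier results of these data known. The functions were tested on simulated data. Python 3.11.15, numpy 2.4.6, pandas 2.3.3, scipy 1.17.1 and matplotlib 3.10.9 were used. Alternatives covered the q-value, a minimum of 20 IP reads, joint gene names, merging of touching windows, the replicate, weighting by reads, list length and windows within 100 nt.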

Additional observations from a re-analysis of the deposited data

How the results depend on the processing

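No paired analysis was possible because the reads were summed over replicates and the columns carry no replicate number, and for the same reason no replicate could be left out. Merging touching windows left 19 of 75 windows on NORAD, 61 of 164 on TUG1 and 208 of 727 on FTX. Requiring a highest q of 0.05 or less left 94 on TUG1 and 460 on FTX. CPSF5 had 60% of NORAD windows, 37.9% of its IP reads and 33.7% of windows per 10000 listed. CPSF6 had 37.2% of TUG1 windows, 50% of IP reads, 7.65% per 10000 listed and 52.1% under the stricter q. The leading protein changed with the unit on both genes. Per 10000 listed, RBM22 led on TUG1 (36.9 against 3.92 for CPSF6). On NORAD LGALS3 led per 10000 listed (20 against 11.6 for CPSF5, from 2 windows), and EIF4B led by IP reads (50.9%). CPSF5 had 51.5% of OIP5-AS1 windows and 75.1% per 10000 listed. GRB2 had 73.2% of FTX windows, 83.5% of IP reads, 46% per 10000 listed and 79.1% under the stricter q. The higher replicate gave median log2 enrichments of 4.17 (CPSF5 on NORAD), 2.99 (CPSF6 on TUG1), 3.83 (CPSF5 on OIP5-AS1) and 4.78 (GRB2 on FTX). Weighted by IP reads, the median GRB2 position on FTX was 53.6% of the gene in place of 54.7%. Counting windows within 100 nt as shared gave 48.9% on NORAD, 98.6% on TUG1 and 10.7% on FTX, and the stricter q gave 20.5% on NORAD, 45% on TUG1 and 2.23% on FTX. By IP reads NORAD ranked 5 for CPSF5 and FTX 4 for GRB2. Of 26 counts of windows by member and protein, 18 stayed within 1.5 times with at least 20 IP reads, 26 with joint gene names, 9 under the stricter q and 15 after merging. The causes of these shifts were not tested. Windows with few or no input reads give uncertain single enrichment values.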
